A study of Rattus norvegicus with 6 samples.

Results

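Carriers of the mitochondrial SLC25 family were followed in rat primary astrocytes given β-hydroxybutyrate (BHB), the main circulating ketone body. Members were the gene symbols of the deposited table made of Slc25a and a number, with at least 1 FPKM (fragments per length of transcript and per depth of the library) in at least 3 of the 6 libraries. Of 48 such symbols 38 reached this level, among 12373 genes that reached it in the whole table of 22608 symbols. The groups were 3 libraries of astrocytes treated with BHB, at 2 mM per the column names, and 3 of control astrocytes. All were primary cells from rat brain, and poly(A) RNA was sequenced. The labels state neither strain, age nor treatment time. They do not say either whether libraries of one group are separate cultures, so the p-values cover the spread between the libraries at hand, which may be technical.

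SLC25 proteins sit mostly in the inner mitochondrial membrane and exchange metabolites, nucleotides, cofactors and inorganic ions between cytosol and matrix. They export ATP, feed phosphate and carboxylates to oxidative metabolism, and carry the aspartate, glutamate and malate of the shuttle that moves reducing equivalents into mitochondria. In astrocytes, glutamate carriers also bring glutamate taken up from synapses to its oxidation in the matrix. Roles given here are those known for the mammalian proteins.

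Promoter sequences are shown for both ADP/ATP carriers, which share a substrate and ranked 1 and 3 in level, for both proton-coupled glutamate carriers, whose levels were unequal, and for the carnitine carrier gene Slc25a20, whose groups did not overlap. They are the 250 bases before the transcript start that RefSeq gives for assembly GRCr8, 5′ to 3′, and genes with several transcripts can have other starts. Capitals mark matches on either strand to the GC box GGGCGG, the CCAAT box CCAAT, the TATA box TATAA, the core TGCGCA of NRF-1 sites and the ERR element TNAAGGTCA, each counted by itself, overlaps included. The TATA letters were set after the sequences had been read.
Slc25a4 (GRCr8 chr16:52805271-52805520, plus strand): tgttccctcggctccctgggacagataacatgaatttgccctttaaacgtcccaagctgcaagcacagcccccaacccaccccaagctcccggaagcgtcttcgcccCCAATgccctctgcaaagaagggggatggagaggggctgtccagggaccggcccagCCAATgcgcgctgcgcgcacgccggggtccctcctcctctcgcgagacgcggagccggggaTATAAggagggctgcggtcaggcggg
Slc25a5 (GRCr8 chrX:120897366-120897615, plus strand): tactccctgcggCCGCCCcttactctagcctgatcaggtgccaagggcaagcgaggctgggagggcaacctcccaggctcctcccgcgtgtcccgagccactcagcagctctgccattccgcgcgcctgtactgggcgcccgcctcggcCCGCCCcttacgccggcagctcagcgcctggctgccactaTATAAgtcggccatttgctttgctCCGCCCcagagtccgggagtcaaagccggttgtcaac
Slc25a18 (GRCr8 chr4:155672919-155673168, plus strand): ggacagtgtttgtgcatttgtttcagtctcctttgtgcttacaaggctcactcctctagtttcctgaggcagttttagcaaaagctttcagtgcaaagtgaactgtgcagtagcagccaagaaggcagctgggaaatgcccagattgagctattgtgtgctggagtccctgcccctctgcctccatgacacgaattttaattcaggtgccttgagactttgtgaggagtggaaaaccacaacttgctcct
Slc25a22 (GRCr8 chr1:205965878-205966127, minus strand): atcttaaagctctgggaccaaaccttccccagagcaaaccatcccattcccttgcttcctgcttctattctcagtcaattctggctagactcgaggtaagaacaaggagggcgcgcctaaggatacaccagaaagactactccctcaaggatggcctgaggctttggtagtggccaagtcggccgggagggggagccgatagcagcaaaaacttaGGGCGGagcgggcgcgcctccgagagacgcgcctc
Slc25a20 (GRCr8 chr8:118243323-118243572, plus strand): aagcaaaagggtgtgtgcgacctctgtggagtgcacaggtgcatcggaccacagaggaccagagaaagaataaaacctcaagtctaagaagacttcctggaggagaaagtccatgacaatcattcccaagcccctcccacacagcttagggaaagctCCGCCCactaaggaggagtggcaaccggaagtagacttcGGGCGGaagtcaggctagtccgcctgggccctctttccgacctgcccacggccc

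The Slc25a4 window held 2 CCAAT boxes and a TATA box that began 26 bases before the start. The Slc25a5 window held 3 GC boxes, no CCAAT box and a TATA box that began 61 bases before the start. The window of Slc25a18 held none of the 5 motifs and 1 CpG dinucleotide in 250 bases, and that of Slc25a22 held 1 GC box and 13 CpG. The Slc25a20 window held 2 GC boxes. Such windows were found for 31 of the 38 members. A GC box was in 67.7% of them, against 61.1% of the 9048 windows of all tested genes and 32.4% of the 27457 windows in the table. CCAAT was in 51.6% of members, against 36.3% of tested genes and 34.3% of all windows. TATAA was in 12.9% of members, against 11.5% of tested genes and 24.1% of all windows. TGCGCA was in 9.68% of members, against 12.6% of tested genes and 6.57% of all windows. TNAAGGTCA was in none of the 31, in 0.398% of tested genes and in 1.0% of all windows. These matches are letters in a window and were not tested for binding.

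The libraries were alike in summed FPKM and in genes reaching the minimum, which does not show their depth. Each library had 12288 to 12312 genes at 1 FPKM or more and a summed FPKM of 354565 to 367448. Astrocyte markers were present, with Gfap at a mean of 1517 FPKM with BHB and 1438 FPKM in controls. The summed level of the 11 astrocyte markers was 5309 to 5322 FPKM with BHB and 4891 to 5150 FPKM in controls. Of these markers only Slc1a3, the glutamate transporter that the series is about, passed. It had 468, 445 and 452 FPKM with BHB and 205, 197 and 206 FPKM in controls. The summed level includes this difference, so it is no measure of astrocyte content. Of the 11 log2 fold changes 7 lay above 0 and 4 below. Markers of fibroblasts and mural cells summed to 4624 to 5005 FPKM with BHB and 4469 to 4844 FPKM in controls, mostly from Tagln and Acta2. Col1a1, Col1a2 and Pdgfrb were also present, at 24.04 FPKM or more in each library. In contrast, Rgs5 had 0.628 to 2.18 FPKM over all libraries, Lum did not exceed 0.234 FPKM and Dcn did not exceed 0.0324 FPKM. The sum therefore does not show how many such cells were present. Microglial markers summed to 30.6 to 32.1 FPKM with BHB and 30.6 to 33.4 FPKM in controls. Of the 7 tested 3 log2 fold changes lay above 0 and 4 below, and none passed. Cx3cr1 and Tmem119, named after their values were seen, went opposite ways. Cx3cr1 had 4.84, 4.99 and 4.15 FPKM with BHB and 6.02, 5.42 and 6.07 FPKM in controls. Tmem119 had 3.20, 2.91 and 3.21 FPKM with BHB and 2.06, 2.84 and 2.68 FPKM in controls. Neuronal markers summed to 84.9 to 86.8 FPKM with BHB and 85.8 to 88.7 FPKM in controls, mostly from Stmn2. Rbfox3 did not exceed 0.554 FPKM and Slc17a7 did not exceed 0.279 FPKM, so the sum does not show neuron content. Of the 6 tested neuronal markers 2 log2 fold changes lay above 0 and 4 below, and none passed. Gad1, named after its values were seen, had 0.994, 1.26 and 1.15 FPKM with BHB and 1.34, 1.83 and 1.54 FPKM in controls. Markers of the oligodendrocyte lineage summed to 44.4 to 49.2 FPKM with BHB and 45.7 to 49.1 FPKM in controls. This sum was led by Olig1, while Sox10 did not exceed 0.322 FPKM, so it does not show the content of such cells either. Of the 6 tested markers of this lineage 4 log2 fold changes lay above 0 and 2 below, and none passed. In the same list Mog, a myelin gene, had 0.263 to 0.529 FPKM with BHB and 5.47, 0.220 and 0.382 FPKM in controls, so control 1 stood apart. No endothelial marker reached the minimum, and Cldn5 was listed at 0 in all libraries. In such bulk samples more cells of a type and more RNA per cell cannot be told apart.

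No SLC25 carrier passed the test of BHB against control. The adjusted p in limma was 0.881 or more for each of the 38, where 7 of all 12373 tested genes, or 0.0566%, passed at 0.05. The log2 fold changes of the members, on the log2(FPKM + 1) scale, ran from -0.31 to 0.33. Of the 38, 23 lay above 0 and 15 below, and their median was 0.02, beside a median of 0.00289 over all tested genes, of which 51.5% lay above 0. At an unadjusted p under 0.05 in limma there was 1 member higher with BHB, or 2.63%, beside 3.45% of all tested genes. On the lower side there were 2 members, or 5.26%, beside 2.14% of all tested genes. The BHB libraries lay wholly above the controls in 2 members, or 5.26%, beside 6.43% of all tested genes. They lay wholly below the controls in 4 members, or 10.5%, beside 4.45% of all tested genes. Both counts on the lower side include Slc25a43, which met the minimum through its control libraries, where it was higher, so nothing is read from their shares.

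Taken gene by gene, intervals bound the size of a difference between the libraries at hand. Like the p-values, they cover only the spread between these libraries, which may be technical. On the log2(FPKM + 1) scale the 95% interval of the difference lay, in 36 of the 38 members, inside a 1.5-fold change in either direction, as it did in 96.7% of all tested genes. The exceptions were Slc25a22, a glutamate carrier, where control 1 stood apart, and Slc25a29, a carrier of basic amino acids, where the BHB libraries were widely spread. This scale understates changes of low genes. With a pseudocount of 0.1 the interval lay inside the limit in 34 members, and the intervals of the low carriers Slc25a43 and Slc25a53 also reached beyond it. The ratio of mean FPKM of Slc25a43, BHB over control, was 0.662. The depth of the libraries is unknown, and depths relative to control 1 inferred from the lowest FPKM values, which scale inversely with depth, lay between 0.985 and 1.18.

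**Figure D1:**
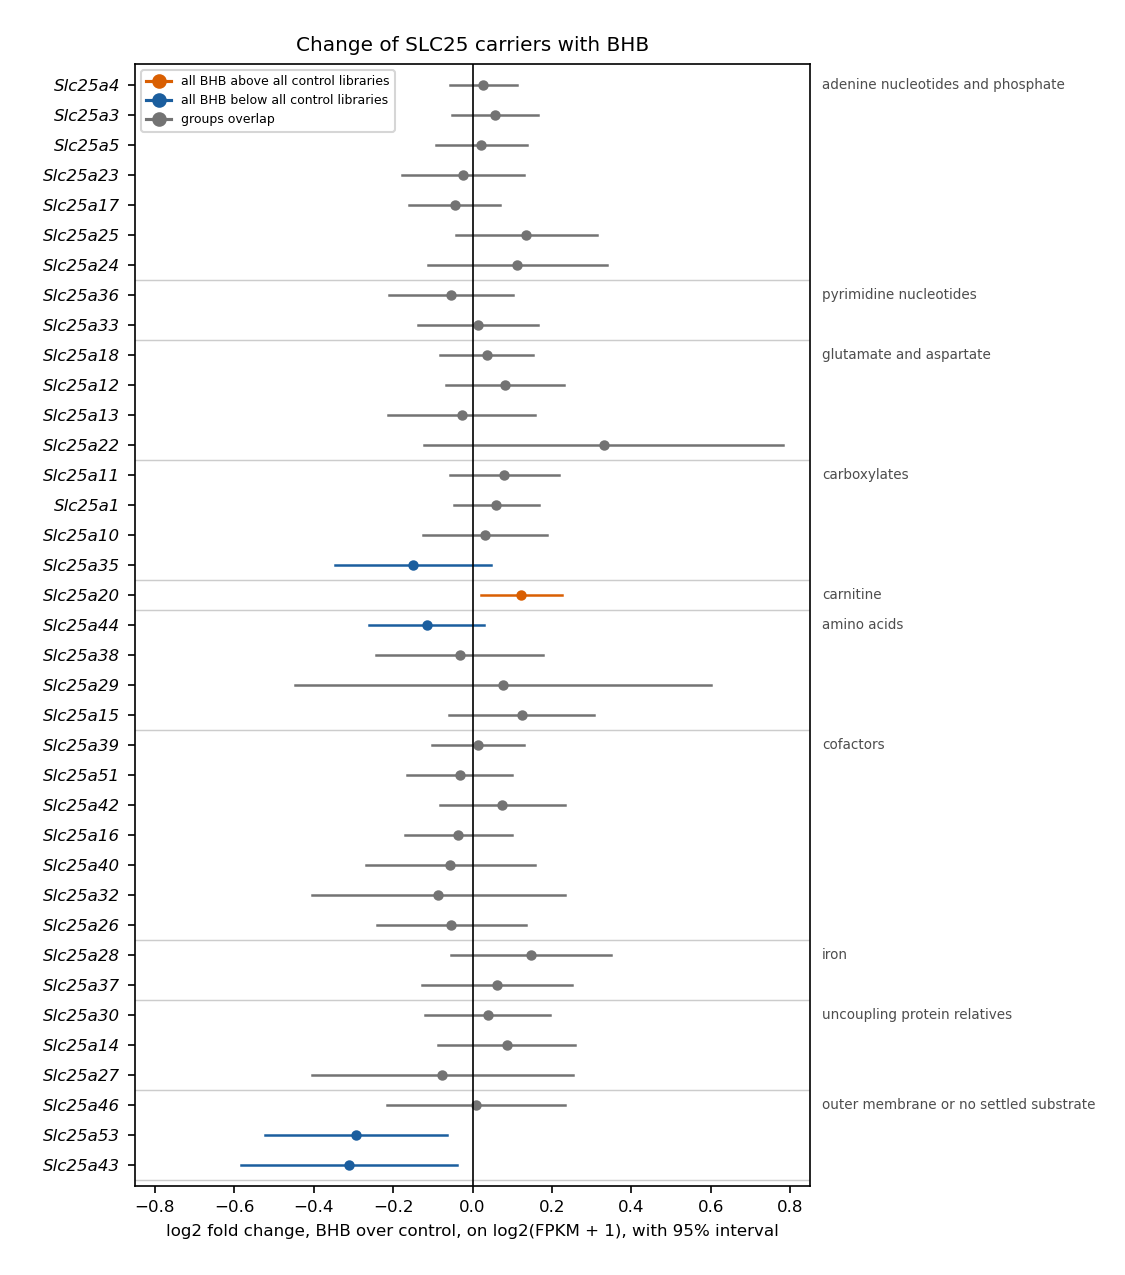
Log2 fold change (BHB over control, on log2(FPKM + 1)) of 37 of the 38 carriers with its 95% interval from limma, grouped by substrate. Slc25a35, whose substrate is not settled, is placed with the carboxylate carriers. Colour marks members in which the groups did not overlap. The 37 values lie between -0.31 and 0.33, and only the intervals of Slc25a20, Slc25a53 and Slc25a43 exclude 0 before adjustment.

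As a family the 48 symbols held 0.311% ± 0.00538 of the summed FPKM with BHB and 0.307% ± 0.00350 in controls (SD, n = 3 each). The family sum was 1151, 1130 and 1115 FPKM in the BHB libraries, against 1089, 1130 and 1097 FPKM in the controls. These ranges overlap, since control 2 lay between BHB 3 and BHB 1. Levels were spread widely over the family, with 3 members at 100 FPKM or more, 8 from 20 to 100 FPKM, 14 from 5 to 20 FPKM and 13 below 5 FPKM. The median member stood at 8.89 FPKM, beside 10.6 FPKM for all tested genes.

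**Figure D2:**
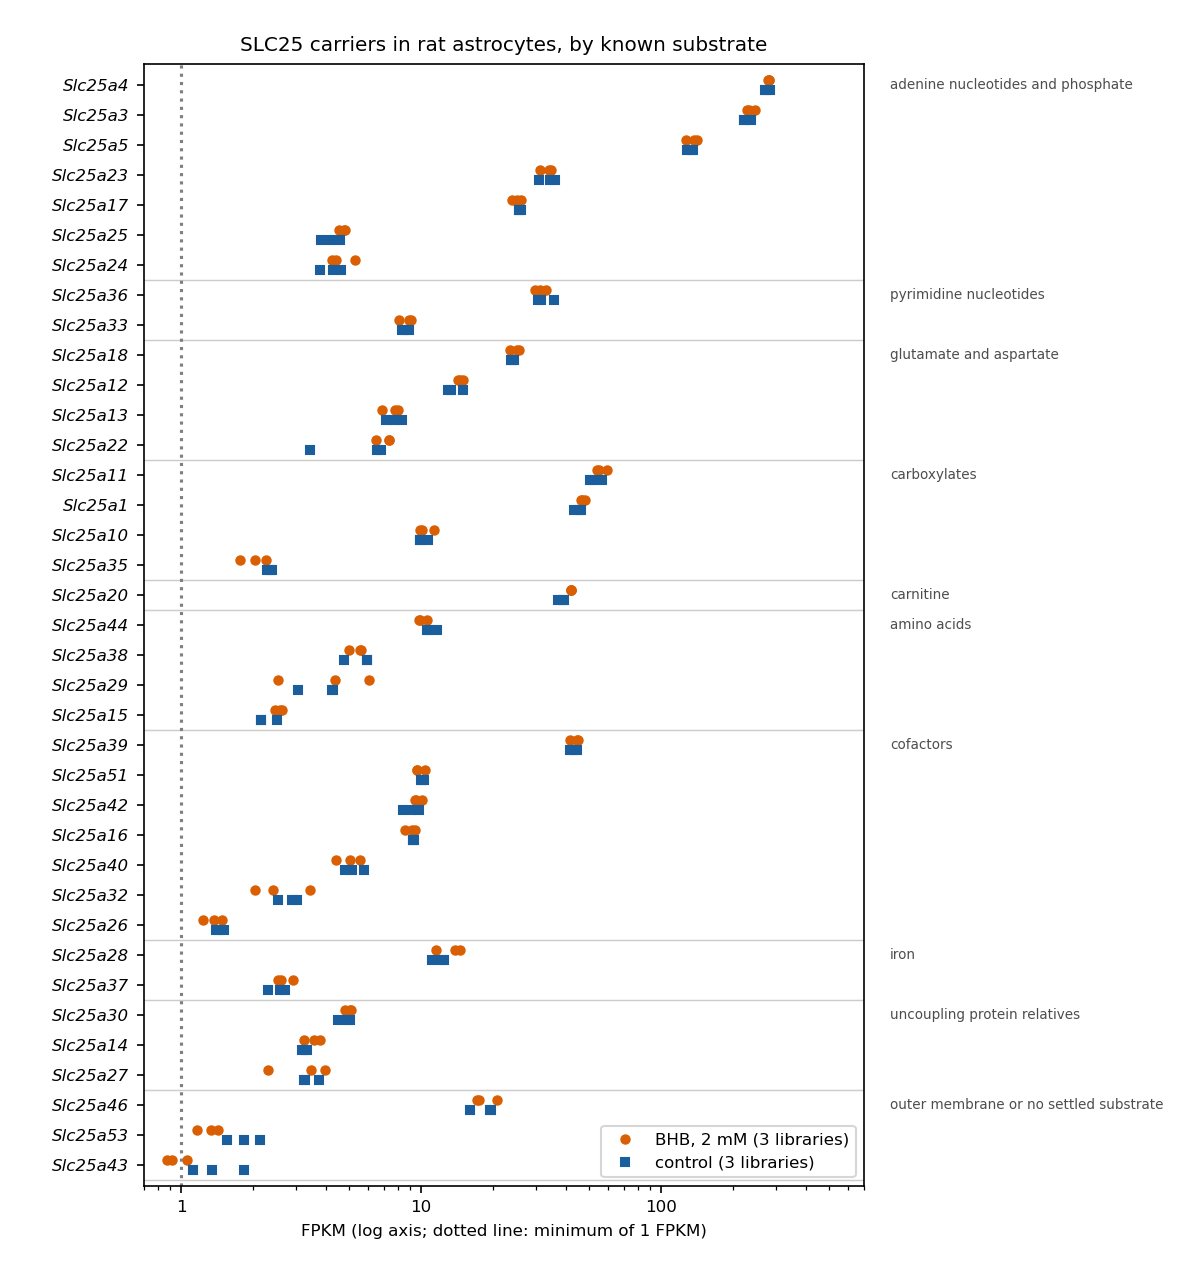
FPKM of 37 of the 38 carriers in the 3 BHB libraries (circles) and the 3 control libraries (squares) on a log axis, grouped by known substrate. Slc25a35, whose substrate is not settled, is placed with the carboxylate carriers. Slc25a4, Slc25a3 and Slc25a5 lie above 100 FPKM, and BHB and control libraries lie close together in nearly every row.

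Carriers of adenine nucleotides and phosphate made up 63.6% of the family's FPKM. Slc25a4 encodes ANT1, which exchanges matrix ATP for cytosolic ADP, and was the most abundant member, above 98.7% of all tested genes. It stood at 282, 282 and 280 FPKM in the BHB libraries, against 273, 283 and 272 FPKM in the controls. Control 2 was the highest library of the 6, and the groups overlapped. Its log2 fold change of 0.03 had a 95% interval of -0.06 to 0.11 (limma adjusted p = 0.936).

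Slc25a3, the phosphate carrier that supplies ATP synthesis, was next. Its level was 246, 232 and 228 FPKM with BHB and 221, 236 and 221 FPKM in controls. BHB 1 was highest, but control 2 lay above the other BHB libraries. The log2 fold change was 0.06, with an interval of -0.05 to 0.16 (limma adjusted p = 0.910). Slc25a5 encodes ANT2, the ADP/ATP carrier of dividing cells, and had 141, 137 and 127 FPKM with BHB and 128, 133 and 136 FPKM in controls. BHB 3 was the lowest and BHB 1 the highest of the 6, so the groups overlapped fully (log2 fold change 0.02, interval -0.09 to 0.14, limma adjusted p = 0.963). RefSeq lists 9 pseudogenes of Slc25a5, 2 of Slc25a3 and 1 of Slc25a4, and 12 of the 38 members have a near copy there. The treatment of reads shared with such copies is not given, so the levels of these carriers are uncertain.

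The balance of both ADP/ATP carriers also overlapped between groups. Slc25a4 held 66.7%, 67.4% and 68.8% of their summed FPKM in the BHB libraries, against 68.1%, 68.0% and 66.7% in the controls. The means were 67.6% ± 1.07 with BHB and 67.6% ± 0.765 in controls (SD, n = 3 each).

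The ATP-magnesium/phosphate carriers, which calcium activates and which adjust the nucleotide content of the matrix, were led by Slc25a23. Slc25a23 stood at 31.3, 33.97 and 34.6 FPKM with BHB and at 36.2, 34.5 and 31.1 FPKM in controls, and the groups overlapped (log2 fold change -0.02, interval -0.18 to 0.13). Slc25a25 had 4.79, 4.79 and 4.54 FPKM with BHB and 4.22, 4.59 and 3.81 FPKM in controls. Control 2 lay just above BHB 3, and the log2 fold change, 0.14 with an interval of -0.04 to 0.31, missed the threshold (adjusted p = 0.890 in limma). Slc25a24 had 4.24 to 5.32 FPKM with BHB and 3.77 to 4.64 FPKM in controls. Within these 3 genes Slc25a23 held 78.0% ± 2.18 of the FPKM with BHB and 80.0% ± 1.24 in controls (SD, n = 3 each).

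Slc25a17, the family member of peroxisomes, which carries adenine nucleotides and related cofactors, had 23.8, 26.1 and 25.01 FPKM with BHB and 26.005, 25.7 and 25.7 FPKM in controls. The control libraries were tightly grouped and lay within the BHB range (log2 fold change -0.05, interval -0.16 to 0.07). Of the pyrimidine nucleotide carriers, which supply the matrix for RNA and DNA synthesis, Slc25a36 had 33.01, 29.9 and 31.4 FPKM with BHB and 30.7, 31.5 and 35.8 FPKM in controls, where control 3 was highest. Its log2 fold change was -0.05 (interval -0.21 to 0.10), and RefSeq lists 2 near copies of it. Slc25a33 lay at 8.06 to 9.10 FPKM with BHB and 8.29 to 8.93 FPKM in controls.

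Carriers of glutamate and aspartate bear on the subject of the series, the handling of glutamate. Slc25a18, the glutamate carrier GC2, was the most abundant of them, at 25.6, 23.4 and 25.01 FPKM with BHB and 23.8, 24.4 and 23.9 FPKM in controls. BHB 2 was the lowest and BHB 1 the highest library, and the log2 fold change was 0.04 (interval -0.08 to 0.15, limma adjusted p = 0.938). Slc25a22, the related carrier GC1, had 6.48, 7.34 and 7.37 FPKM with BHB and 3.44, 6.83 and 6.57 FPKM in controls. Control 1 stood far below the other libraries, and the other controls lay within the BHB range. The difference of 0.33 on the log2 scale was the highest of the family (interval -0.12 to 0.78, adjusted p = 0.890 in limma), and it was 0.07 without control 1. Control 1 was also the library with 5.47 FPKM of Mog, whose part in this difference was not tested. RefSeq lists 31 transcripts of Slc25a22, and its values have more than 6 decimals, as in 22 of the 38 members. The labels do not say how transcripts were merged into one value per gene.

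Slc25a12, which encodes aralar, the aspartate/glutamate carrier of brain, had 14.3, 14.5 and 14.9 FPKM with BHB and 13.3, 14.9 and 12.9 FPKM in controls. Control 2 matched the highest BHB library, and the log2 fold change of 0.08 had an interval of -0.07 to 0.23 (limma adjusted p = 0.8997). Slc25a13, its relative citrin, had 7.78, 8.0 and 6.84 FPKM with BHB and 7.67, 8.32 and 7.11 FPKM in controls. These values overlapped fully (log2 fold change -0.03, interval -0.21 to 0.16). Slc25a12 made up 64.7%, 64.4% and 68.6% of the pair's FPKM with BHB and 63.5%, 64.2% and 64.5% in controls, with BHB 3 highest. Slc25a18 made up 79.8%, 76.1% and 77.2% of both glutamate carriers with BHB and 87.4%, 78.1% and 78.5% in controls, with control 1 apart.

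**Figure D3:**
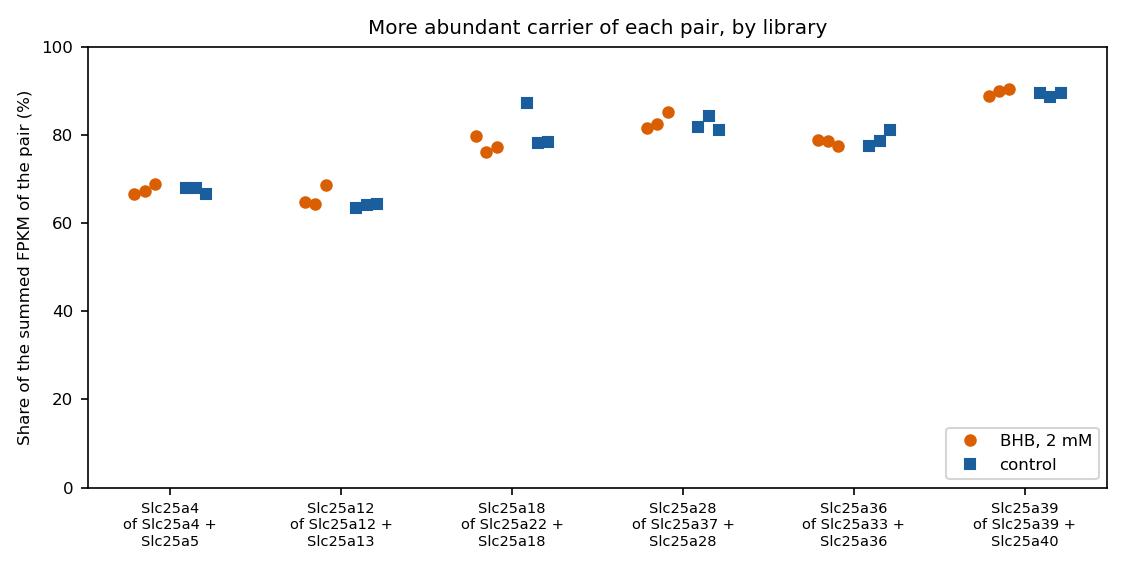
Share (%) of the more abundant carrier in the summed FPKM of a pair with the same kind of substrate, in each BHB library (circles, left) and each control library (squares, right). Slc25a4 holds 66.7% to 68.8% of the ADP/ATP carriers in all libraries, and control 1 stands apart at 87.4% for Slc25a18.

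The malate-aspartate shuttle joins these carriers with Slc25a11, the oxoglutarate/malate carrier, and with aminotransferases and malate dehydrogenases. Slc25a11 had 54.1, 55.1 and 59.5 FPKM with BHB and 56.8, 52.2 and 50.4 FPKM in controls. BHB 3 was highest, but control 1 lay above the other BHB libraries (log2 fold change 0.08, interval -0.06 to 0.22, limma adjusted p = 0.898). All 4 enzymes of the shuttle were tested, and none passed in either direction. The most abundant, the mitochondrial malate dehydrogenase gene Mdh2, had 138, 143 and 149 FPKM with BHB and 143, 148 and 135 FPKM in controls.

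Among other carboxylate carriers, Slc25a1, which exports citrate for lipid synthesis, had 46.4, 46.98 and 48.1 FPKM with BHB and 43.1, 46.002 and 46.5 FPKM in controls. Control 3 lay just above BHB 1, and the log2 fold change was 0.06, with an interval of -0.05 to 0.17 (adjusted p = 0.898 in limma). Slc25a10, the dicarboxylate carrier, ran from 9.88 to 11.3 FPKM with BHB and from 9.88 to 10.7 FPKM in controls. Slc25a35 was grouped here with the carboxylate carriers, though its substrate is not settled. It had 2.26, 2.02 and 1.76 FPKM with BHB and 2.38, 2.35 and 2.28 FPKM in controls. All BHB libraries lay below all controls, by a narrow gap between BHB 1 and control 3. Its log2 fold change was -0.15 (interval -0.35 to 0.05, limma adjusted p = 0.890).

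Slc25a20 encodes the carnitine/acylcarnitine carrier, through which fatty acids enter the matrix for oxidation. It stood at 41.997, 42.141 and 42.038 FPKM with BHB and at 39.4, 37.1 and 39.2 FPKM in controls. All BHB libraries lay above all controls, and the BHB values were nearly identical. The means were 42.1 ± 0.0742 FPKM with BHB and 38.5 ± 1.27 FPKM in controls (SD, n = 3 each), a ratio of 1.09. The log2 fold change of 0.12 (SE 0.0440, interval 0.02 to 0.22) had an unadjusted p of 0.0225 in limma and did not pass (limma adjusted p = 0.881).

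Of the amino acid carriers, Slc25a44, which carries branched-chain amino acids, had 9.77, 9.86 and 10.6 FPKM with BHB and 11.7, 10.6 and 10.7 FPKM in controls. The BHB libraries lay below the controls, with BHB 3 almost level with control 2 (log2 fold change -0.12, interval -0.26 to 0.03, limma adjusted p = 0.890). Slc25a15, which exchanges ornithine and citrulline, had 2.58, 2.63 and 2.47 FPKM with BHB and 2.14, 2.16 and 2.52 FPKM in controls. Control 3 lay among the BHB libraries, and the log2 fold change was 0.12 (interval -0.06 to 0.31, limma adjusted p = 0.890). Slc25a38, a glycine carrier needed for haem synthesis, ran from 4.99 to 5.62 FPKM with BHB and from 4.78 to 5.97 FPKM in controls. Slc25a29 was the least reproducible member, at 6.04, 2.53 and 4.36 FPKM with BHB and 4.29, 4.27 and 3.08 FPKM in controls. BHB libraries were both its highest and its lowest, and their coefficient of variation was 40.7%, beside a median of 5.34% over the members in that group.

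None of the 8 tested cofactor carriers passed. Slc25a39, a carrier of glutathione, had 44.5, 45.04 and 41.6 FPKM with BHB and 41.6, 44.7 and 43.5 FPKM in controls. The groups overlapped fully (log2 fold change 0.01, interval -0.10 to 0.13), and RefSeq lists 8 pseudogenes of this gene. Its relative Slc25a40 was far lower, and Slc25a39 held 89.7% ± 0.755 of the pair's FPKM with BHB and 89.2% ± 0.546 in controls (SD, n = 3 each).

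Slc25a51, which imports NAD+, lay at 9.61 to 10.4 FPKM with BHB and 9.96 to 10.3 FPKM in controls. The table also has a row for Mcart1, which RefSeq gives as an older name of Slc25a51, at 7.46 to 8.35 FPKM with BHB and 7.59 to 8.05 FPKM in controls, so reads may be split between them. The coenzyme A carriers Slc25a42 and Slc25a16, the folate carrier Slc25a32 and the S-adenosylmethionine carrier Slc25a26 overlapped between groups, with log2 fold changes from -0.09 to 0.08. In Slc25a32 the BHB libraries were again unequal, with 3.46 FPKM in BHB 1 and 2.04 FPKM in BHB 2.

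Mitoferrins bring iron into mitochondria for haem and iron-sulphur clusters. Slc25a28, mitoferrin-2, which serves most tissues, had 11.6, 13.8 and 14.6 FPKM with BHB and 12.1, 12.5 and 11.1 FPKM in controls. BHB 2 and BHB 3 lay above the controls and BHB 1 among them (log2 fold change 0.15, interval -0.05 to 0.35, limma adjusted p = 0.890). Slc25a37, the mitoferrin of red cell precursors, lay at 2.52 to 2.92 FPKM with BHB and 2.31 to 2.70 FPKM in controls. Slc25a28 held 83.1% ± 1.87 of the pair's FPKM with BHB and 82.4% ± 1.73 in controls (SD, n = 3 each).

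The relatives of uncoupling proteins, Slc25a14, Slc25a27 and Slc25a30, had mean levels of 3.25 to 4.99 FPKM with BHB and 3.27 to 4.84 FPKM in controls and overlapped between groups. Slc25a46, an outer membrane protein that takes part in mitochondrial dynamics, ran from 17.1 to 20.7 FPKM with BHB and from 15.96 to 19.6 FPKM in controls.

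The most negative log2 fold changes of the family belonged to Slc25a43 and Slc25a53, carriers with no settled substrate and levels close to the minimum. Slc25a53 had 1.33, 1.17 and 1.42 FPKM with BHB and 1.55, 2.12 and 1.83 FPKM in controls. All BHB libraries lay below all controls, with means of 1.31 ± 0.129 FPKM with BHB and 1.83 ± 0.285 FPKM in controls (SD, n = 3 each). The log2 fold change of -0.29 (SE 0.0998, interval -0.52 to -0.06) had an unadjusted p of 0.0180 in limma, the smallest of the family, and did not pass (limma adjusted p = 0.881). With a pseudocount of 0.1 it was -0.45.

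Slc25a43 had 1.06, 0.870 and 0.915 FPKM with BHB and 1.83, 1.12 and 1.35 FPKM in controls. All BHB libraries lay below all controls, and control 1 stood highest. The log2 fold change was -0.31 (SE 0.119, interval -0.58 to -0.04), with an unadjusted p of 0.0295 in limma and an adjusted p of 0.881. It was -0.20 without control 1 (unadjusted p = 0.103 in limma) and -0.53 with a pseudocount of 0.1. Slc25a43 was the only one of the 38 members with a library under the minimum. It met the minimum through its 3 control libraries, with 1 BHB library, so its place in the family rests on the group in which it was higher. Per RefSeq, Slc25a5, Slc25a14, Slc25a43 and Slc25a53 lie on chromosome X.

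**Figure D4:**
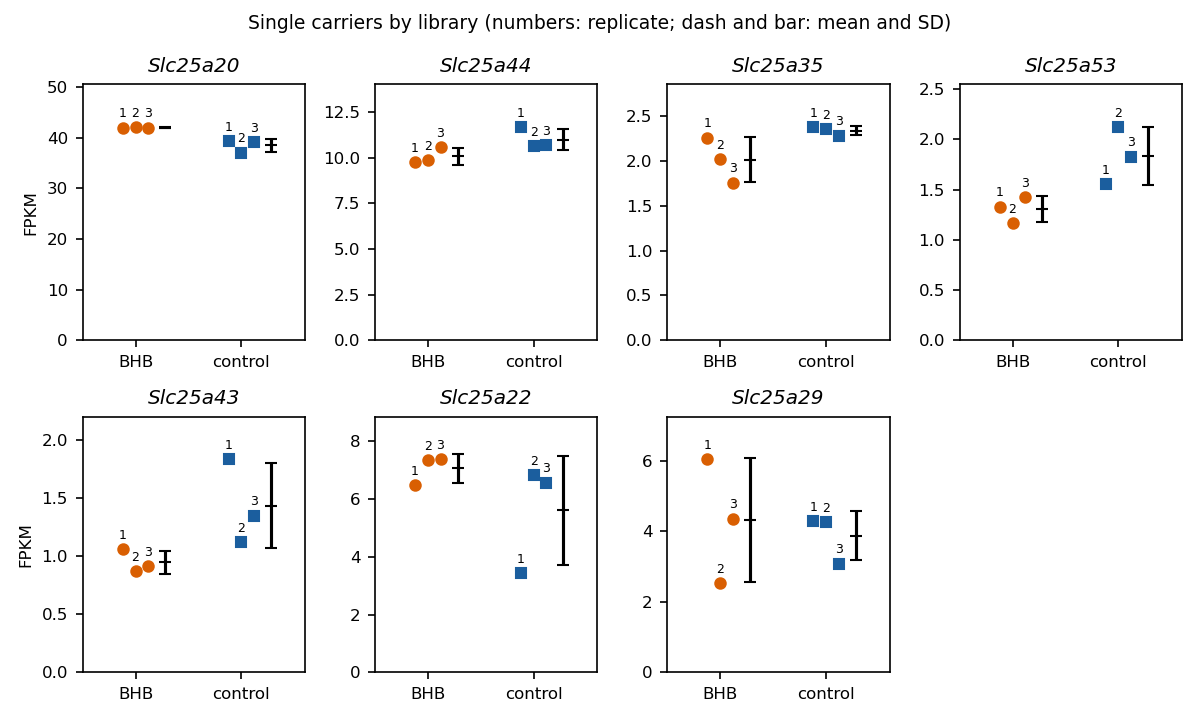
FPKM by library of 5 carriers whose groups did not overlap (Slc25a20, Slc25a44, Slc25a35, Slc25a53, Slc25a43) and of the 2 with single libraries far from the rest (Slc25a22, Slc25a29), BHB left and control right, with mean and SD. Slc25a20 lies at 41.997 to 42.141 FPKM in all BHB libraries, and control 1 of Slc25a22 lies at 3.44 FPKM.

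The other 10 symbols stayed below the minimum and were not tested. Nearest to it were Slc25a2, a basic amino acid carrier, with 1.06, 1.55 and 0.757 FPKM with BHB and 0.642, 0.681 and 0.969 FPKM in controls, and Slc25a34, with 0.891, 0.514 and 0.214 FPKM with BHB and 0.679, 1.35 and 0.272 FPKM in controls. Just inside were Slc25a43 and Slc25a26, with Slc25a26 at 1.23 to 1.48 FPKM with BHB and 1.40 to 1.505 FPKM in controls. Slc25a45 was at 0.276, 0.239 and 0.238 FPKM with BHB and 0.344, 0.438 and 0.604 FPKM in controls. Slc25a21, Slc25a48 and Slc25a52 had 0.102 to 0.425 FPKM with BHB and 0.125 to 0.444 FPKM in controls. Slc25a31, the ADP/ATP carrier of testis, Slc25a47, the carrier of liver, and Slc25a54 did not exceed 0.104 FPKM in any library, and Slc25a41 was listed at 0 in all 6.

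Family members listed under other symbols did not pass either, in 0 of 4 tested rows. These include Mcart1, per RefSeq an older name of Slc25a51, so not all 4 are further genes. The most abundant was Mtch1, an outer membrane relative of the carriers, with 98.2, 103 and 93.1 FPKM with BHB and 92.0, 99.3 and 94.8 FPKM in controls. Ucp2, an uncoupling protein, named after its values were seen, had 82.7, 93.7 and 95.4 FPKM with BHB and 91.6, 93.2 and 83.1 FPKM in controls. Ucp1 was listed at 0, and Ucp3 did not exceed 0.190 FPKM.

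Carriers reach the inner membrane through receptors, small chaperones and an insertase. Of 12 tested genes of this import route 7 lay above 0 and 5 below, and none passed. The most abundant was the receptor gene Tomm20, with 118, 111 and 114 FPKM with BHB and 107, 113 and 107 FPKM in controls. Timm8b, a small chaperone of the intermembrane space, named after its values were seen, had 46.2, 48.7 and 46.6 FPKM with BHB and 36.9, 38.5 and 35.6 FPKM in controls. All BHB libraries lay above all controls, with a log2 fold change of 0.34 (SE 0.0482), an unadjusted p of 8.70e-05 in limma and an adjusted p of 0.135, so it did not pass. Its partner Timm13, also named after its values were seen, had 38.1, 41.4 and 32.1 FPKM with BHB and 31.7, 37.9 and 34.1 FPKM in controls, and the groups overlapped.

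Other mitochondrial membrane transporters, among them the pyruvate carrier, sideroflexins, the calcium uniporter and porins, were tested in 23 genes. Of these 12 lay above 0 and 11 below, and none passed in either direction, with no unadjusted p under 0.05 in limma. The most abundant, the porin gene Vdac3, had 118, 113 and 110 FPKM with BHB and 109, 121 and 114 FPKM in controls.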

How the data were processed

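RNA was extracted with a column kit, captured on oligo-dT beads and made into Illumina TruSeq libraries, per the labels' protocols. The authors deposited one table of FPKM values for 22608 symbols in 6 libraries. Tools named in the submitters' processing notes are bcl2fastq 2.0, HISAT2, StringTie and DESeq2, with the build rn6 and no roles or settings. For annotation, strand and shared reads, the settings are not given in the sources used. As FPKM carries length and depth scaling, no count test was run.

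Values were taken as log2(FPKM + 1). Genes with at least 1 FPKM in 3 of 6 libraries were fitted together with limma 3.58.1 in R 4.3.3 (eBayes with trend, two-sided). Benjamini-Hochberg adjustment ran over all 12373 genes, with a threshold of 0.05. The fit was run on simulated data with normal noise and its own fitted SDs. That meets its assumptions by design and does not show how small a change it can find in these data. Shares and lists have no test. Members, lists and roles were chosen with earlier results of these data known. Values by library are given for the 10 most abundant members, the 10 with the smallest p and Slc25a11, Slc25a12, Slc25a13, Slc25a18 and Slc25a22. A result on 1 member is not reported here, and counts and ranges over the members include it. All 48 symbols matched RefSeq (GRCr8), used for names, transcripts and promoters, and no rn6 coordinates are given. Protein sequences were not used here. Alternatives varied the pseudocount, minimum, scaling, variance model, weights, block and libraries.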

Additional observations from a re-analysis of the deposited data

How the results depend on the processing

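No SLC25 member passed in any of the 14 alternatives, with a lowest adjusted p of 0.685 in limma (without BHB 1), where 4 members had an unadjusted p under 0.05. The count at an unadjusted p under 0.05 was 3. It was 4 with no FPKM minimum, where Slc25a45 was added, 2 with scaling to equal sums, where Slc25a20 had an unadjusted p of 0.0563 in limma, and 1 with a minimum of 5 FPKM, where fewer genes were tested. It ran from 0 to 4 when a library was left out: 0 without BHB 2, 1 without control 2 (Slc25a43) and 1 without BHB 3 (Slc25a53), and the cause was not tested. Of 289 values of the 21 members given with fold changes 277 kept their direction. Quantile normalization turned Slc25a4 to -0.00704 and Slc25a5 to -0.00942, and scaling to equal sums turned Slc25a39 to -0.00275. Leaving out a library gave log2 fold changes of -0.0101 to 0.0647 for Slc25a5, -0.0769 to 0.0330 for Slc25a13, -0.0841 to 0.0224 for Slc25a23, -0.0958 to 0.0112 for Slc25a36, -0.0130 to 0.0480 for Slc25a39 and 0.0655 (without control 1) to 0.475 for Slc25a22. In 18 of the 21 members the log2 fold change turned or moved by over 1.5 times without some library, and in 3 (Slc25a15, Slc25a20, Slc25a53) it did neither. Of those that kept their sign, the range was 0.0835 to 0.237 for Slc25a28, -0.209 to -0.0883 for Slc25a35, 0.0795 to 0.188 for Slc25a25, 0.0102 to 0.0709 for Slc25a18, -0.0766 to -0.0121 for Slc25a17 and -0.406 to -0.197 for Slc25a43. Correlations of deviations from group means were -0.0899, 0.164 and -0.151 between same-numbered libraries. They were 0.203 between BHB 1 and control 3 and 0.186 between BHB 3 and control 1. Deviations within a group of 3 depend on each other, so these values cannot decide whether libraries were paired in some order. The replicate block followed the numbers only. With the replicate block 0 members passed, the lowest adjusted p in limma was 0.936, and 3 had an unadjusted p under 0.05. Depth is unknown, so small changes of low carriers may be missed.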
